A study of Mus musculus with 19 samples.

Results

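The 10 genes described are Gzma, Gzmb, Prf1, Klrd1, Il2rb, Ncr1, Nkg7, Cd3e, Lck and Eomes, out of 16842 genes listed in mouse bone-marrow RNA-seq libraries. They are used as markers of T cells and natural killer (NK) cells. They were chosen because genes of these cells read higher in CD11b libraries of old Asxl1-mutant mice than of old wild-type mice. The levels in those 6 old libraries are therefore a description with no test, and tests are given only for the other libraries. The question asked of them is whether genes of NK cells or genes of T cells carry that difference, and in which replicates. Asxl1 encodes a chromatin regulator that is often mutated in clonal hematopoiesis, the setting the series studies.

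Myeloid cells selected for CD11b came from the marrow of young mice, 4 months old, with 3 libraries of Asxl1-mutant (MT) and 4 of wild-type (WT) animals. The same cells came from old mice of 18 months, with 3 MT and 3 WT libraries. LK cells, progenitors that carry c-Kit and lack lineage markers, came from mice of 18 months as well, again with 3 MT and 3 WT libraries. The labels name no allele, Cre driver, strain, sex or treatment beyond this. They do not say that replicates are separate animals, so p-values measure the spread between these libraries, which may be technical. Itgam, which encodes CD11b, was at 1480 to 1817 CPM (counts scaled to library size) in young, 3149 to 3462 in old and 45.2 to 85.6 in LK libraries. Kit was at 170.0 to 219.8 CPM in LK libraries and at 62.1 to 115.0 CPM in the CD11b libraries.

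Gene counts summed to 26251822 to 38347903 per library in the young set, 41909460 to 68260809 in the old set and 31853263 to 59882448 in the LK set. Young MT replicate 3 and young WT replicate 4 stood apart, with Y-linked Ddx3y at 104.3 and 109.3 CPM and Xist at 0 and 0.306 CPM, whereas the other 5 young libraries held Xist at 1689 CPM or more. At 18 months replicates 2 and 3 of each group lay closer together than either did to replicate 1: a chi-square over genes, divided by its degrees of freedom, was 2.80 to 6.07 in those 4 pairs and 13.1 to 42.6 in the 8 pairs with replicate 1. Sampling noise alone gives a value near 1. Values above it cannot tell separate animals from repeat preparations of 1 animal, so they do not decide whether replicates 2 and 3 are independent. The main fits counted each as its own library, and fits with replicates 2 and 3 summed are given beside them.

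T cells and NK cells are lymphocytes that share a killing apparatus and much of their signalling. T cells recognise antigen through a receptor whose signal leaves by the CD3 chains and the kinase Lck, whereas NK cells use germline-encoded receptors such as NKp46 (Ncr1) and CD94 (Klrd1). Both can store perforin and granzymes in granules, both respond to interleukin 15 through the beta chain Il2rb, and mature mouse NK cells carry CD11b on their surface. In bulk RNA, fewer cells of a type and less RNA per cell cannot be told apart.

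The 10 genes are protein-coding and lie on the mm10 build (GRCm38) as annotated by GENCODE M21. On the T side, Cd3e (chr9:44998740-45009627, minus strand) encodes the epsilon chain of CD3. Used by both cell types are Lck (chr4:129548344-129573641, minus strand), a kinase, and Il2rb (chr15:78479256-78495271, minus strand), a receptor chain. On the NK side stand the receptor genes Ncr1 (chr7:4337724-4345164, plus strand) and Klrd1 (chr6:129591782-129598775, plus strand). Eomes (chr9:118478212-118486132, plus strand) encodes a T-box factor of NK cells and of some CD8 T cells. The granule genes are Gzma (chr13:113093825-113100981, minus strand), Gzmb (chr14:56258838-56262260, minus strand), Prf1 (chr10:61297833-61304680, plus strand) and Nkg7 (chr7:43437073-43438249, plus strand). For counting, Cd3e was placed in a list of T genes, Ncr1, Klrd1, Eomes and Gzma in a list of NK genes, and Lck, Il2rb, Gzmb, Prf1 and Nkg7 in a list of genes that both cell types use.

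RefSeq promoter windows (GRCm38.p6, 250 bases before to 50 after a start site) matched 8 of the 10 genes. Windows are shown for Cd3e and Lck, which stood apart in old MT libraries, for Ncr1, which did not, and for Gzma and Gzmb, which were called in LK cells. Each reads 5′ to 3′ on the strand of the gene. Capitals mark matches, on either strand, to 3 short cores: TGTGGT for RUNX factors, GGTGTG for T-box factors and GGAAGT for ETS factors.
Cd3e, chr9:45009562-45009861, minus strand: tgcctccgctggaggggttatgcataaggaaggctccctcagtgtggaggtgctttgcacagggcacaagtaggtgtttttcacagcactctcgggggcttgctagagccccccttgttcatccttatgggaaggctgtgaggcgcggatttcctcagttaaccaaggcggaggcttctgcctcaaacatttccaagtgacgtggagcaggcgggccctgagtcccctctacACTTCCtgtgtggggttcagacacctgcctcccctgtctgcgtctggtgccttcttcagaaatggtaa
Lck, chr4:129558323-129558622, minus strand: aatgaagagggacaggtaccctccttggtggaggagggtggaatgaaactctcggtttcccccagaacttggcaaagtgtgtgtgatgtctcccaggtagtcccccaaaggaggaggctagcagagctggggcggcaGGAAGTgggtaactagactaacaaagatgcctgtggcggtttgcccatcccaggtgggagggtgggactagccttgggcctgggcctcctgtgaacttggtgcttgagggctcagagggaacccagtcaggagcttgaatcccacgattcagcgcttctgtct
Lck, chr4:129573592-129573891, minus strand: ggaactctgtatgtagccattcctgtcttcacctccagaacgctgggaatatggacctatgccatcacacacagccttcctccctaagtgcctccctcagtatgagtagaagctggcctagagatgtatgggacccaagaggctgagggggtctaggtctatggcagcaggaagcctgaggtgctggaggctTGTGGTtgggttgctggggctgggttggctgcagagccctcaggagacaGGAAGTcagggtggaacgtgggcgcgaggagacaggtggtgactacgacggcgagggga
Ncr1, chr7:4337465-4337764, plus strand: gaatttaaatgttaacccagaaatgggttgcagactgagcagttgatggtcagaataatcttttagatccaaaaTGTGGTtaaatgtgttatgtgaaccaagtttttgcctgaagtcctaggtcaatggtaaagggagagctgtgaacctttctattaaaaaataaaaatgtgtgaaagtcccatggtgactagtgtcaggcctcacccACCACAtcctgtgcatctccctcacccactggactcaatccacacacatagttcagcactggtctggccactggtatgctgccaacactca
Gzma, chr13:113100932-113101231, minus strand: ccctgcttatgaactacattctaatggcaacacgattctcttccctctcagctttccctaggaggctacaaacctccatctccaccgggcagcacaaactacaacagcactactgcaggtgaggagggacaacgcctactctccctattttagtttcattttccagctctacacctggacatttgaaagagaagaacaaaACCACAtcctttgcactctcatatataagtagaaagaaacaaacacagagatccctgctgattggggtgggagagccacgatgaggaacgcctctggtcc
Gzmb, chr14:56262285-56262584, minus strand: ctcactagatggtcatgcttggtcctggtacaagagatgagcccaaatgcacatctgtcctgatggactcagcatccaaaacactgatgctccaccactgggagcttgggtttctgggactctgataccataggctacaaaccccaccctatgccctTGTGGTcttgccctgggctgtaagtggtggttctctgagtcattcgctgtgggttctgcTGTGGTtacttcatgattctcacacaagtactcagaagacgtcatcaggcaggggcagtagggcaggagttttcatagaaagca
The 8 genes had 10 windows, since Lck and Ncr1 have 2 each, and those of Ncr1 overlap. The RUNX core was in 7 of 10 windows, from 6 of the 8 genes, against 16.8% of all 32851 windows in the table. The T-box core was in 1 of 10 windows (Nkg7), against 19% of all windows (6257). The ETS core was in 4 of 10 windows, from 3 genes (Cd3e, Lck and Prf1), against 23.8%. Cd3e holds an ETS match and no RUNX match in this window, whereas Ncr1 and Gzmb hold a pair of RUNX matches each and no ETS match. A match is a run of letters and not a site shown to be used, and its absence covers only this window.

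All 10 genes were listed and none was at 0 in any of the 19 libraries. They were far lower in old than in young CD11b cells: every one of the 7 young libraries exceeded every one of the 6 old libraries for 10 of 10 genes, against 27.3% of the 14694 genes listed in both sets. Mean CPM in young WT libraries over old WT libraries ran from 2.05 for Nkg7 and 2.68 for Prf1 to 11.2 for Ncr1, 11.4 for Gzmb and 21.2 for Gzma. The group means of Ncr1 were 4.72 ± 0.607 CPM in young WT (SD, n = 4) and 0.421 ± 0.0709 in old WT libraries (SD, n = 3). Those of Cd3e were 1.69 ± 0.469 and 0.174 ± 0.0305 CPM.

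Other cell types shifted between the ages as well. The summed CPM of 8 neutrophil genes (Ly6g, S100a8 and others) was 31160 to 44720 in young and 108400 to 135700 in old libraries. Lower in old libraries, like the T and NK genes, were the sums of eosinophil genes (1279 to 2047 CPM in young, 70.7 to 217.3 in old), basophil and mast cell genes (147.3 to 227.1 and 7.24 to 21.7), plasmacytoid dendritic genes (103.5 to 228.5 and 38.5 to 60.3) and progenitor genes (152.8 to 189.1 and 72.5 to 80.6). The part of these shifts in the levels of the T and NK genes was not tested. Young MT replicate 3 and young WT replicate 4, which held Ddx3y as all 6 old libraries did, also exceeded every old library for each of the 10 genes. The other young libraries held Xist, which was not listed in the old set, and the labels give no sex. The part of sex in these levels was not tested. Age, sequencing and sort of the 2 sets cannot be told apart. CPM without composition (TMM) factors moved the mean over libraries of the median gene from 0.926 to 0.760 in old MT and from 0.595 to 0.483 in old WT libraries.

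**Figure D1:**
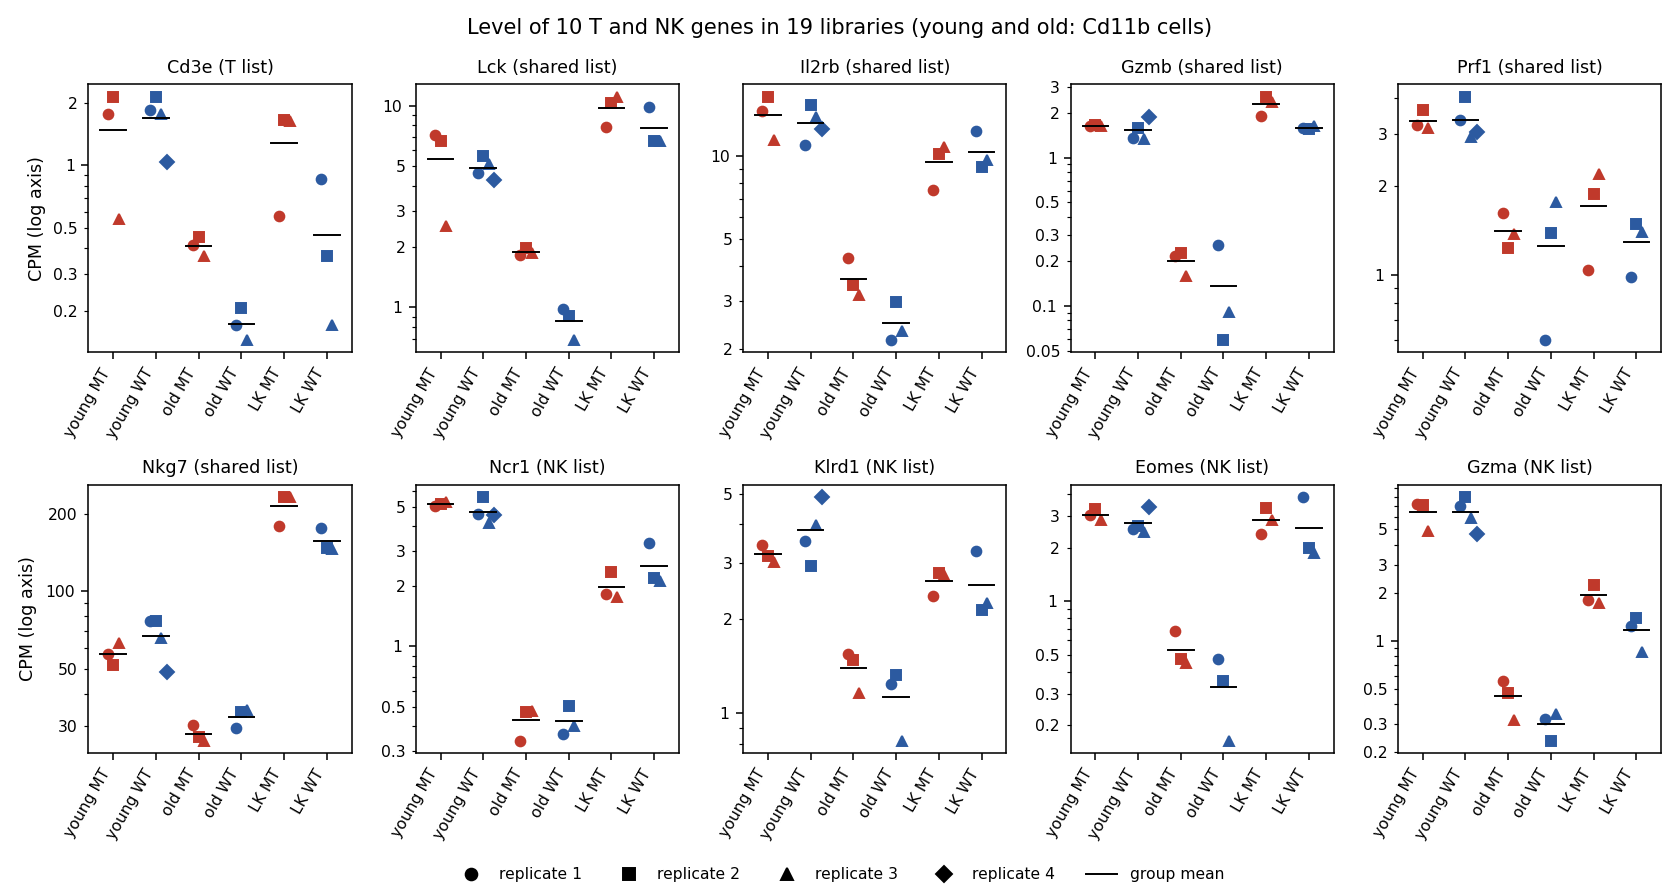
CPM (log axis) of the 10 genes in each of the 19 libraries, by group; symbols give the replicate number and black lines the group mean. The old CD11b groups sit lowest for 9 of the 10 genes, and old MT libraries clear all old WT libraries only for Cd3e, Lck and Il2rb.

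Old WT was the lowest of the 6 groups for 9 of the 10 genes, and for Nkg7 the lowest was old MT. The highest group was young MT or young WT for Gzma, Prf1, Klrd1, Il2rb, Ncr1, Cd3e and Eomes, and LK MT for Gzmb, Nkg7 and Lck. Neighbouring groups in the order of mean level often overlapped: of the 5 steps from the highest to the lowest group, 3 were free of overlap for Gzma and Nkg7, 2 for Gzmb, Klrd1, Il2rb, Ncr1 and Lck, and 1 for Prf1, Cd3e and Eomes. For Ncr1 those steps were from young to LK cells and from LK to old CD11b cells. Between LK WT and old WT, the ratio of means ran from 1.03 for Prf1 to 8.98 for Lck and 11.7 for Gzmb.

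Levels between genes were compared as CPM per kilobase of the longest GENCODE transcript. Nkg7, a membrane protein of cytotoxic granules, was the most abundant of the 10 in WT libraries of each set, at 75.9 CPM per kilobase in young, 37.1 in old and 177.4 in LK cells. Ncr1 was at 3.16, 0.282 and 1.69 in the same groups. Which cells held the Nkg7 RNA was not tested. In old WT libraries the other 9 lay between 0.0683 (Cd3e) and 1.23 (Klrd1) CPM per kilobase. In young WT libraries Gzma came second at 6.4 CPM per kilobase, and in LK WT libraries Lck did at 3.54.

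In old CD11b libraries the genes highest in MT relative to WT were Cd3e and Lck, while the NK receptor gene Ncr1 was level and Nkg7 was lower. The log2 fold changes of MT against WT, with their standard errors, were 1.26 ± 0.32 for Cd3e and 1.13 ± 0.19 for Lck. They were 0.72 ± 0.41 for Eomes, 0.56 ± 0.33 for Gzma, 0.54 ± 0.18 for Il2rb, 0.02 ± 0.29 for Ncr1 and -0.23 ± 0.09 for Nkg7. In 3 of the 10 genes (Cd3e, Lck, Il2rb) all MT libraries lay above all WT libraries, against 11.1% of the 13398 genes tested. The 10 genes passed the filter on low counts, whose cutoff was 0.17 CPM. Cd3e cleared that cutoff in 3 MT and 0 WT libraries, so it was tested only through the group where it is high. Gzmb cleared it in 2 MT and 1 WT and Eomes in 3 MT and 2 WT libraries. Over all genes edgeR called 0.336% (0.127% higher and 0.209% lower in MT). Since this contrast chose the genes, nothing is read from these counts, and no p-value is given for them.

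Cd3e had 21, 22 and 14 counts in old MT replicates 1, 2 and 3 and 8, 7 and 8 in WT replicates 1, 2 and 3, or 0.417, 0.451 and 0.369 against 0.171, 0.206 and 0.145 CPM. Each MT library was above each WT library, at counts that carry a large counting error. Lck had 92, 96 and 71 counts in MT and 46, 31 and 38 in WT, or 1.83, 1.97 and 1.87 against 0.984, 0.912 and 0.690 CPM. The 3 MT libraries of Lck lay close together and clear of WT. Il2rb stood at 4.26, 3.41 and 3.13 CPM in MT and 2.16, 2.97 and 2.32 in WT, with MT replicate 3 close above WT replicate 2.

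The NK list genes of the set, Ncr1, Klrd1, Eomes and Gzma, differed less than Cd3e and Lck, and each overlapped between the groups. Eomes and Gzma still had larger log2 fold changes than Il2rb, at 0.72 and 0.56 against 0.54. Cd3e is the only T list gene of the set, and it was tested only through MT libraries. Ncr1, which encodes NKp46, had 17, 23 and 18 counts in MT and 17, 17 and 22 in WT libraries. Its CPM of 0.337 to 0.474 in MT fell inside or below the 0.364 to 0.500 of WT. Klrd1, the CD94 chain that pairs with NKG2 receptors, was at 1.55, 1.48 and 1.16 CPM in MT and 1.24, 1.32 and 0.817 in WT, a log2 fold change of 0.32 ± 0.24. MT replicates 1 and 2 of Klrd1 were above all WT libraries and MT replicate 3 was not. Eomes differed by 0.72 ± 0.41, with 34, 23 and 17 counts in MT against 22, 12 and 9 in WT, and MT replicate 3 lay below WT replicate 1 in CPM.

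The granule genes were split. Gzma, a tryptic granzyme, had 28, 23 and 12 counts in MT and 15, 8 and 19 in WT (log2 fold change 0.56 ± 0.33), so that MT replicates 1 and 2 were high and replicate 3 lay among WT. Gzmb, which cleaves after aspartate and activates caspases, had 11, 11 and 6 counts in MT and 12, 2 and 5 in WT (0.53 ± 0.55), and WT replicate 1 was the highest of the 6 in CPM. Prf1, the pore former perforin, differed by 0.17 ± 0.36, with WT replicates at 0.599, 1.38 and 1.76 CPM on both sides of the MT libraries at 1.23 to 1.63. Nkg7 was at 30.4, 27.2 and 26.3 CPM in MT and 29.4, 33.9 and 34.7 in WT, lower in MT on average with 1 MT library above the lowest WT library.

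**Figure D2:**
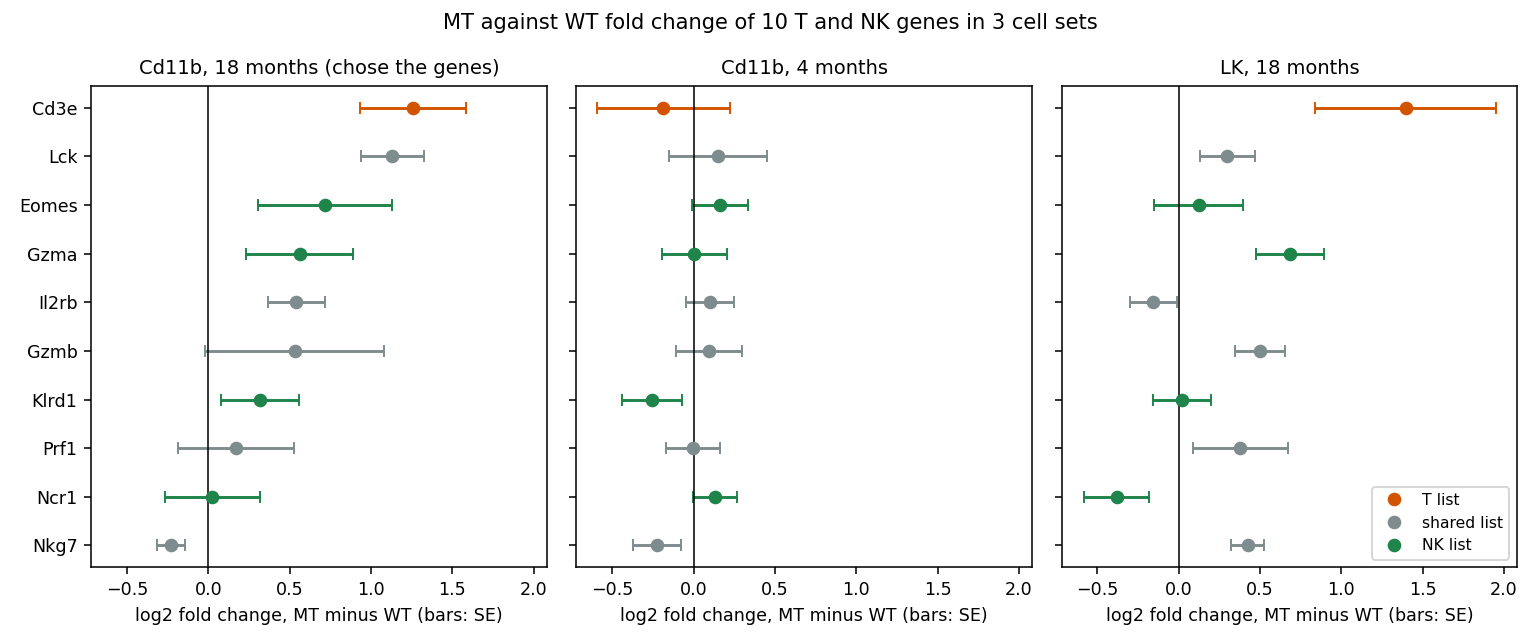
Log2 fold change of MT against WT with its standard error for the 10 genes in old CD11b (left), young CD11b (middle) and LK cells (right), coloured by list. Cd3e and Lck lead at 1.26 and 1.13 in the old set, where the genes were chosen, and the farthest from 0 in the young set is Klrd1 at -0.25.

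By replicate, old MT libraries 1 and 2 carried more of the difference in these 10 genes than library 3. The median log2 ratio of the 10 genes to their old WT mean was 0.65 in MT replicate 1, 0.45 in MT replicate 2 and 0.16 in MT replicate 3. The number of the 10 above all WT libraries was 6, 6 and 3, against 23.6%, 30.3% and 28.8% of all genes tested in those libraries. The same libraries chose the 10 genes, so these counts are a description and nothing is read from the shares. Cd3e, Lck and Il2rb were the 3 genes above all WT libraries in replicate 3. Without old MT replicate 1 the median log2 fold change of the 10 was 0.38, without MT replicate 3 it was 0.65, and with replicates 2 and 3 of each group alone 0.35, beside 0.54 with all libraries. Over 15 alternative settings Cd3e ran from 1.13 to 1.38, Lck from 0.98 to 1.29, Il2rb from 0.31 to 0.68, Ncr1 from -0.07 to 0.17 and Prf1 from -0.32 to 0.53.

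Among other genes of these cell types, medians were alike in the T and NK lists. Of the 15 T list genes tested, 12 were higher in old MT, and the median log2 fold change was 0.27. Of the 14 NK list genes tested, 10 were higher, with a median of 0.28, and of the 21 shared genes 16 were higher, with a median of 0.49. The median of all genes tested was 0.00. Leaving out the 10 genes, medians were 0.22 for the T list, 0.24 for the NK list and 0.46 for the shared list. Some genes tested, such as Cd3e and Cd8b1, passed the filter only through MT libraries, so these counts and medians are a description only.

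Libraries that did not overlap were counted over all listed genes, since the filter can pass a gene through its higher group alone. All MT lay above all WT libraries for 9 of 18 T, 2 of 20 NK and 7 of 24 shared genes, against 10.6% of all genes listed, and below for 0, 1 and 1, against 10.9%. The same contrast chose the 10 genes among them, so nothing is read from these counts.

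The T list was not of 1 piece. Cd8a, a chain of the CD8 co-receptor, had 32, 56 and 59 counts in old MT and 12, 9 and 13 in old WT libraries (log2 fold change 2.11 ± 0.37). Cd8b1, the other CD8 chain, had 18, 48 and 15 counts against 4, 2 and 5 (2.81 ± 0.55; 2.18 without MT replicate 2). All its WT libraries lay under the cutoff on low counts. Like Cd3e, it was therefore tested only through the group where it is high, and its size rests on very few WT counts. Cd3g, the CD3 gamma chain, was at 0.873 to 0.921 CPM in MT and 0.236 to 0.385 in WT (1.47 ± 0.26), and Bcl11b, a transcription factor of T cell commitment, differed by 1.67 ± 0.40. By contrast Cd3d, the CD3 delta chain, was at 5.13 to 5.56 CPM in MT and 4.68 to 5.83 in WT (0.03 ± 0.11), and Cd4 differed by 0.07 ± 0.29. Cd5 (0.97 ± 0.53) and Zap70 (0.79 ± 0.39) overlapped between the groups, and Tcf7 (0.50 ± 0.22) did not.

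Of the NK list genes beside the 10, Klrb1c, which encodes NK1.1, was at 0.496 to 0.579 CPM in old MT and 0.513 to 0.599 in old WT libraries (log2 fold change -0.03 ± 0.24). Klrk1, the activating receptor NKG2D, differed by 0.25 ± 0.16 and Klre1 by 0.77 ± 0.44, both with overlap. Xcl1, a chemokine of NK and CD8 T cells named after its values were seen, had 17, 16 and 13 counts in MT and 14, 3 and 9 in WT (0.81 ± 0.43), with all MT libraries above all WT in CPM. In the shared list, Tbx21, which encodes the factor T-bet, had 136 counts in MT replicate 1 and 14 to 23 in each of the other 5 old libraries. Its log2 fold change of 1.80 ± 0.74 fell to 0.52 without that library. Ccl5, a chemokine of cytotoxic lymphocytes, was at 2.45 to 3.05 CPM in MT and 1.53 to 1.74 in WT (0.77 ± 0.15).

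**Figure D3:**
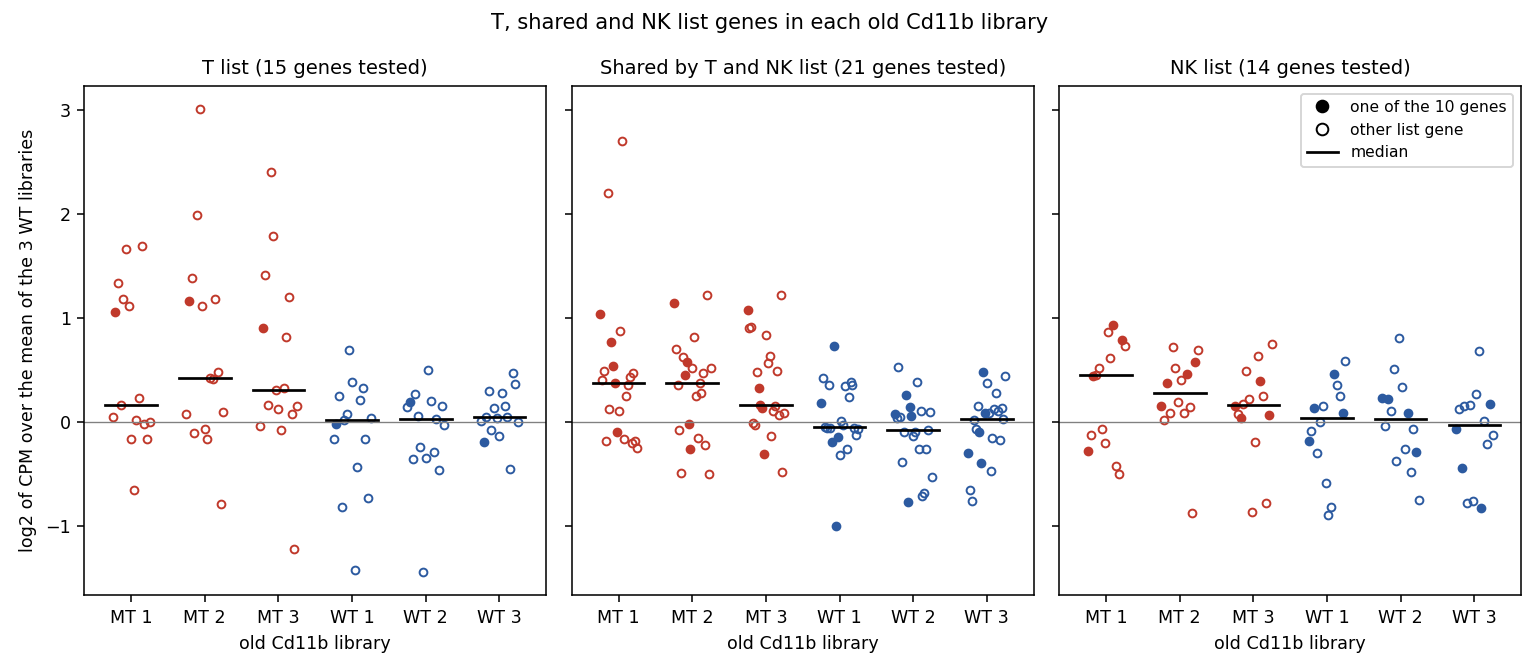
Log2 ratio of each tested T, shared and NK list gene to its mean in old WT libraries (offset 0.05 CPM), by old CD11b library; filled points are the 10 genes and bars are medians. T list medians are 0.16, 0.42 and 0.30 in MT replicates 1 to 3, and NK list medians 0.45, 0.28 and 0.16.

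The order of the replicates depended on whether the 10 genes were in the lists. The NK list median was 0.45, 0.28 and 0.16 in old MT replicates 1, 2 and 3 with its 4 chosen genes, and 0.19, 0.17 and 0.19 without them, where 4, 4 and 3 of 10 genes lay above all WT libraries. The T list median was 0.16, 0.42 and 0.30, and 0.10, 0.42 and 0.23 without Cd3e. The shared list median was 0.37, 0.37 and 0.17, and 0.30, 0.36 and 0.31 without its 5 chosen genes. Outside the 10 genes, the NK and shared lists were thus near level over the 3 MT libraries, and the T list was lowest in replicate 1. Replicate 1 stood out for B cell genes: the summed CPM of 10 of them was 236.0 there, 69.9 and 71.3 in the other MT libraries and 66.3 to 87.3 in WT, and its B list median was 1.499. The part of those B cell genes in the T and NK values was not tested. Without this library the log2 fold changes were 1.25 for Cd3e, 1.15 for Lck and 0.39 for Il2rb.

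Summed over a list, levels did not follow the medians. The 20 NK list genes listed came to 17.4 to 20.2 CPM in old MT and 18.8 to 21.9 in old WT libraries, overlapping and with the lower mean in MT, against a median fold change above 0. S1pr5, named after its values were seen, a sphingosine phosphate receptor used by NK cells, made up 9.02 to 12.4 CPM of the WT sums and 5.66 to 7.38 of the MT sums. The T list came to 50.4 to 55.4 CPM in MT and 43.0 to 50.2 in WT, which nearly met, and the shared list to 114.3 to 128.5 against 117.2 to 131.2. CD11b itself was level, with Itgam at 3149 to 3434 CPM in MT and 3260 to 3462 in WT. No NK, T or shared list gene was at 0 in all libraries of a group.

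In young CD11b cells, which the choice of genes did not use, no change passed the test for any of the 10 genes. The edgeR quasi-likelihood test called 0 of 10, and the adjusted p was 0.999 for each. At an unadjusted p under 0.05 there were also 0, and DESeq2 and voom with sample weights called 0. Over all 13755 genes tested 0.0% passed, while 444 lay under 0.05 before adjustment. Log2 fold changes ran from -0.25 for Klrd1 to 0.16 for Eomes, with a median of 0.05 against -0.01 over all genes, and for none of the 10 did MT and WT libraries separate, against 2.26% of genes tested with all MT above and 2.18% with all MT below all WT libraries (2.31% and 2.43% of genes listed). A p that misses the threshold does not show equality: the standard errors ran from 0.14 for Ncr1 to 0.41 for Cd3e. Whether the young and old differences differ was not tested.

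The young libraries differed among themselves in Lck and Cd3e. Lck was at 7.17, 6.69 and 2.52 CPM in MT replicates 1, 2 and 3 and at 4.62, 5.64, 5.12 and 4.29 in WT replicates 1 to 4. Cd3e was at 1.77, 2.13 and 0.552 CPM in MT and 1.85, 2.14, 1.76 and 1.03 in WT. MT replicate 3 was the lowest of the 7 for both, and WT replicate 4 the next lowest for Cd3e, the pair that held Ddx3y. In the same pair the B list median fell 1.12 and 0.76 below the WT mean on the log2 scale, and its part in the Lck and Cd3e values was not tested. Without that pair Cd3e differed by 0.04 rather than -0.19, and 0 of the 10 were called.

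For the other genes, too, the young groups overlapped. Ncr1 was at 5.06, 5.15 and 5.28 CPM in young MT and 4.62, 5.57, 4.13 and 4.56 in young WT libraries, a spread that covers both groups. Gzmb was at 1.62 to 1.66 CPM in MT and 1.33 to 1.88 in WT, and Gzma at 4.90 to 7.17 against 4.67 to 7.92. Nkg7 was at 51.6 to 62.8 CPM in MT and 48.5 to 76.7 in WT. Over the T, NK and shared lists edgeR called 0 of 17, 0 of 20 and 0 of 24 genes in the young set, with 0, 0 and 1 at an unadjusted p under 0.05 and 0 by DESeq2 or voom. In young cells too, among genes of granule exocytosis, interleukin 2 and 15 signalling, T cell receptor signalling and NK receptor signalling edgeR, DESeq2 and voom called 0, with 0 at an unadjusted p under 0.05.

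In LK progenitors of old mice, 3 of the 10 genes rose in MT, all of them granule genes, and the T and NK receptor genes were not called. Nkg7 rose by 0.42 ± 0.10 on the log2 scale (edgeR adjusted p 0.0193), Gzma by 0.69 ± 0.21 (0.0401) and Gzmb by 0.50 ± 0.16 (0.0436). Of all 14113 genes tested 29.8% were called, 13.9% higher and 15.9% lower, so 3 of 10 higher is to be read against a high background. The median log2 fold change of the 10 was 0.34, against 0.02 over all genes. The 3 calls changed with single libraries left out and with the handling of transcript length, as did the calls over all genes, described below.

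Gzma had 108, 139 and 121 counts in LK MT replicates 1, 2 and 3 and 72, 90 and 35 in LK WT replicates 1, 2 and 3, or 1.81, 2.24 and 1.72 against 1.24, 1.38 and 0.854 CPM. Gzmb was at 1.91, 2.58 and 2.38 CPM in MT and 1.58, 1.55 and 1.63 in WT. Nkg7 was at 179.6, 231.3 and 231.4 CPM in MT and 176.7, 146.9 and 145.2 in WT. For these 3 genes all MT libraries lay above all WT libraries (22.1% of all genes tested), though MT replicate 1 and WT replicate 1 of Nkg7 nearly met.

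The other 7 genes did not pass the test. Cd3e had 34, 103 and 115 counts in LK MT and 50, 24 and 7 in LK WT libraries, and differed by 1.396 ± 0.56 on the log2 scale (edgeR adjusted p 0.0963). Its WT replicate 1 lay above MT replicate 1, so the groups overlapped. Lck differed by 0.30 ± 0.17 (edgeR adjusted p 0.220), at 7.82, 10.3 and 11.1 CPM in MT and 9.84, 6.71 and 6.68 in WT. Prf1 differed by 0.38 ± 0.29 (edgeR adjusted p 0.358). Il2rb, used by both cell types, differed by -0.16 ± 0.15 (edgeR adjusted p 0.452). On the NK side Klrd1 differed by 0.02 ± 0.18, Eomes by 0.12 ± 0.27 and Ncr1 by -0.38 ± 0.20 (edgeR adjusted p 0.947, 0.766 and 0.188). Ncr1 was at 1.77 to 2.35 CPM in MT and 2.12 to 3.28 in WT.

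The LK libraries did not divide by genotype alone. MT replicate 1 read low and WT replicate 1 high: the median log2 ratio of the 10 genes to the WT mean was -0.05, 0.47 and 0.53 in MT replicates 1, 2 and 3 and 0.29, -0.20 and -0.20 in WT. Neutrophil and B cell genes did the same. The summed CPM of the 8 neutrophil genes was 984.9, 3179 and 3058 in MT and 847.5, 443.0 and 420.3 in WT, and that of the 10 B cell genes was 49.8, 83.6 and 85.0 in MT and 63.7, 49.6 and 48.8 in WT. Itgam, a marker of mature myeloid cells, was at 45.9, 85.4 and 85.6 CPM in MT and 56.6, 47.1 and 45.2 in WT. Platelet genes went the other way, with sums of 303.8, 210.2 and 210.3 CPM in MT and 166.5, 201.7 and 203.1 in WT, and progenitor genes summed to 443.5, 375.4 and 383.6 CPM in MT and 433.5 to 453.9 in WT. The part of these lists in the T and NK values was not tested.

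**Figure D4:**
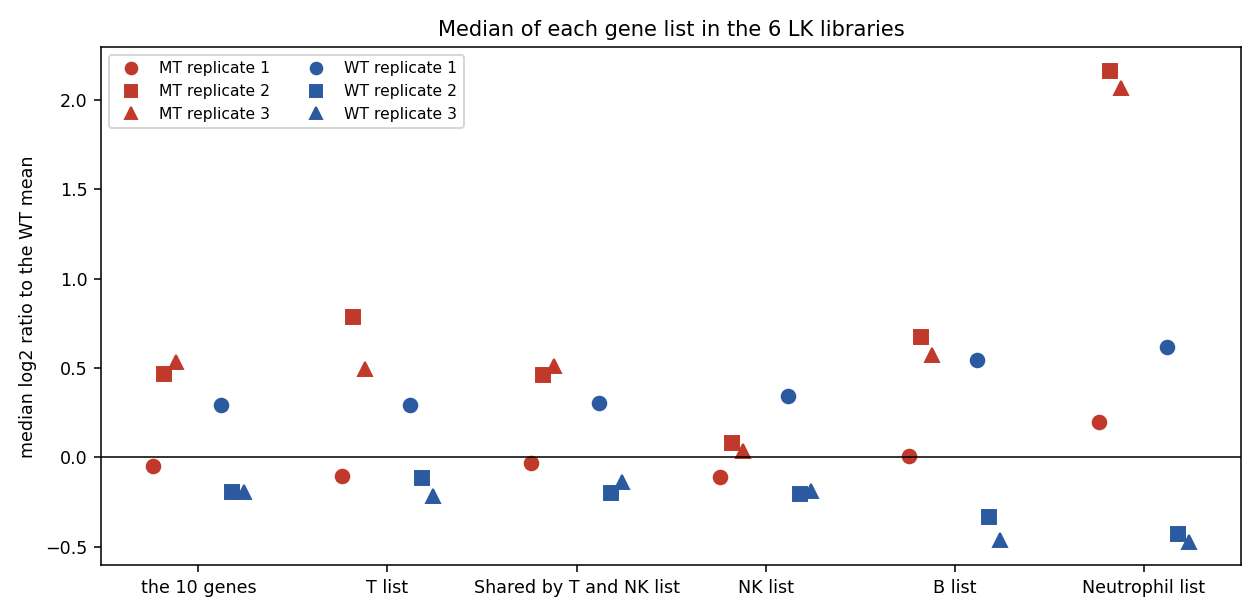
Median log2 ratio to the LK WT mean for the 10 genes and for the T, shared, NK, B and neutrophil lists in each of the 6 LK libraries. MT replicates 2 and 3 are high (0.47 and 0.53 for the 10 genes), WT replicates 2 and 3 low (-0.20 each), and WT replicate 1 lies above MT replicate 1 in every list shown; for the NK list WT replicate 1 is the highest library (0.34).

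Leaving out LK MT replicate 2 or 3, or LK WT replicate 2 or 3, brought the count of the 10 called to 0. It was 4 when MT replicate 1 was left out and 3 when WT replicate 1 was. With replicates 2 and 3 of each group alone it was 7, and with them summed to 1 library 0. Calls over all genes moved too. They were 983 to 1185 without replicate 2 or 3 of either group. Without MT replicate 1 they were 5144 of 14315, and without WT replicate 1 5569 of 14342. With replicates 2 and 3 alone they were 8525 of 14214, and with these summed 3 of 14512. LK fold changes fell with transcript length over all genes (Spearman -0.464 across 12556 genes with a length, which are not independent replicates). Among the called genes the longest transcripts have 881 bases for Nkg7, 996 for Gzma and 1436 for Gzmb. Klrd1 (919 bases) and Ncr1 (1495) are short too and were not called, at log2 fold changes of 0.02 and -0.38. Of the longer genes, Il2rb (4194) differed by -0.16, and Cd3e (2550) had the largest LK fold change of the 10 (1.396). With the length trend removed 0 of the 10 were called, against 2305 of all 14113 genes. Nkg7, Gzma and Gzmb then differed by 0.19, 0.47 and 0.33 (edgeR adjusted p 0.222, 0.157 and 0.178). Over 15 alternatives the adjusted p of Nkg7 ran from 6.86e-21 to 0.226 and was under 0.05 in 8, that of Gzma from 0.00387 to 0.208 (7) and that of Gzmb from 0.00211 to 0.306 (5).

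Among the other T genes in LK cells, both CD8 chains and Lat were called. Cd8a rose by 1.17 ± 0.24 on the log2 scale (edgeR adjusted p 0.0116), at 2.46, 4.51 and 4.44 CPM in MT and 1.96, 1.54 and 1.46 in WT. Cd8b1 rose by 1.52 ± 0.33 (edgeR adjusted p 0.0145), at 1.54, 3.53 and 3.41 CPM in MT and 1.27, 0.768 and 0.854 in WT. Lat, an adaptor of the T cell receptor, rose by 0.39 ± 0.08 (edgeR adjusted p 0.0120). These were 3 of 17 T list genes tested, with 0 lower, against 13.9% of all genes called higher, and a replicate block left 0 of them. They were also called with the length trend removed (Cd8a 1.15, Cd8b1 1.35, Lat 0.28; edgeR adjusted p 0.0195, 0.0320 and 0.0484), but Cd8a and Cd8b1 missed the threshold when replicate 2 or 3 of either group was left out (edgeR adjusted p 0.0537 to 0.0586 and 0.0591 to 0.0709). Lat missed it when MT replicate 2, WT replicate 2 or WT replicate 3 was left out (edgeR adjusted p 0.0579 to 0.0631). Cd3d (0.79 ± 0.46, edgeR adjusted p 0.232) and Cd3g (0.47 ± 0.37, 0.379) were not called.

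Of 21 NK list genes tested in LK cells, 2 rose and 1 fell, a smaller share than the 29.8% called over all genes. Klrg1, an inhibitory receptor of mature NK and effector T cells, rose by 1.38 ± 0.36 (edgeR adjusted p 0.0237), at 0.301 to 0.451 CPM in MT and 0.103 to 0.195 in WT, and Gzma was the other. Itga2, the CD49b chain used to stain NK cells and also found on progenitors and platelets, fell by 1.14 on the log2 scale (SE 0.28, edgeR adjusted p 0.02004). Both calls ended with the length trend removed (edgeR adjusted p 0.0546 for each), and Klrg1 also missed the threshold when any library but MT replicate 1 was left out (0.0522 to 0.1073). Itga2 missed it when MT replicate 2, MT replicate 3 or WT replicate 2 was left out (0.0629 to 0.0870). Klrb1c was not called (-0.28 ± 0.20, edgeR adjusted p 0.317). The list's median was 0.01 and that of the T list 0.39, against 0.02 over all genes.

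The pathways around the 10 genes were counted in LK cells by their roles, against 13.9% of all genes called higher and 15.9% lower. Of 19 granule genes tested 5 rose and 0 fell: Nkg7, Gzma and Gzmb with Srgn, the granule proteoglycan (0.32 ± 0.06, edgeR adjusted p 0.0100), and Cst7, a cathepsin inhibitor (0.31 ± 0.08, edgeR adjusted p 0.0204). Of 11 genes of interleukin 2 and 15 signalling, the cytokine Il15 rose (0.32, edgeR adjusted p 0.0236) and 4 transducers fell, Jak1 (-0.27), Jak3 (-0.20), Stat5a (-0.17) and Stat5b (-0.21), with edgeR adjusted p of 0.0140, 0.0173, 0.0116 and 0.0111. Of 16 genes of T cell receptor signalling Lat, Lcp2 (0.23) and Vav1 (0.15) rose and Plcg1 (-0.32) fell (edgeR adjusted p 0.0120, 0.00971, 0.0219 and 0.0292). Of 10 genes of NK receptor signalling the adaptors Fcer1g (0.32) and Hcst (0.47) rose and Vav3 (-0.15) fell (edgeR adjusted p 0.0185, 0.0308 and 0.0386). Many of these genes are used by progenitor and myeloid cells too. With the length trend removed, the calls left in these lists were 0 of 19, 1 of 11 (Stat5a), 2 of 16 (Lat and Lcp2) and 0 of 10, and with a replicate block 0 in each. Each gene named here also missed the threshold when some 1 library was left out, with a highest edgeR adjusted p of 0.0545 for Srgn, 0.0617 for Stat5a, 0.0582 for Lcp2 and 0.145 for Vav3.

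Genes outside the set were ranked by how closely they followed the mean of the standardised 10 genes. Over the 13 CD11b libraries, centred within each age, the 7 closest of 11982 genes were Il27ra (Pearson r 0.91), Zfp275 (0.89), Tmem41a (0.85), Arhgap6 (0.84), Bhlhb9 (0.83), 1600012F09Rik (0.83) and Muted (0.83). Among the 10 themselves, the correlation of each with the other 9 was 0.82 for Il2rb, 0.77 for Lck and 0.64 for Cd3e and Gzma, but 0.10 for Ncr1, 0.07 for Gzmb, -0.06 for Klrd1 and -0.34 for Nkg7. Over the 6 LK libraries the closest of 11834 genes were Rassf1, Atp5l, Pigw, Yrdc, Agtrap, Vps37b, 1600014C10Rik and Il2rg, with r from 0.993 to 0.998, where MT replicates 2 and 3 lie at the high end and WT replicates 2 and 3 at the low end. These are descriptions over libraries that share genotype, depth and replicate groups, and carry no p-value.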

How the data were processed

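Whole-number counts per gene symbol, 1 table per library, were deposited by the authors for 19 libraries, and the transposable element counts deposited beside them were not used here. The submitters' processing notes name STAR, HTSeq and DESeq2 and the mm10 build, with no version. Per the labels' protocols the library kit was directional, but the use of strand in counting is not given in the sources used here. The tables list 15703, 15070 and 15793 genes for the young, old and LK sets. The T cell receptor constant genes Trac, Trbc1, Trbc2 and Trdc were placed in the T list. They are not listed under these symbols in any set, so they could not be read.

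Each set was fitted alone in R 4.3.3 by quasi-likelihood, edgeR 4.0.16 (filterByExpr, TMM factors, robust), with Benjamini-Hochberg adjustment over all 13755, 13398 or 14113 genes tested and calls at an adjusted p under 0.05. A standard error is the size of the log2 fold change over the square root of F. CPM were scaled over the genes listed in all 3 sets, so that 1 scale covers all libraries. Alternatives were RLE factors, no filter, DESeq2 1.42.0, a replicate block, all 19 libraries in 1 fit, voom with sample weights (limma 3.58.1) and each library left out. Settings chosen after seeing the data were a young set without the pair holding Ddx3y, replicates 2 and 3 alone or summed, and the trend with transcript length removed. Tables and figures were made with Python 3.11.15, numpy 2.4.6, pandas 2.3.3 and matplotlib 3.10.9. The fitting code was tested on simulated data.

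The 10 genes and all gene lists were chosen with earlier results of these data known. Named are the 10 genes, the defining genes of the T, NK and B lists and, per list and per young or LK comparison, up to 5 genes with the smallest p among those called. S1pr5, Xcl1, Lamp1, Itgam, Kit, Xist and Ddx3y are named because a value turns on them. The 8 genes most like the set were ranked by Pearson correlation of log2(CPM + 1), and 1 of them is not reported here.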

Additional observations from a re-analysis of the deposited data

Results flagged for a closer look

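Klrk1, which encodes NKG2D, was at 6.65 CPM in young WT replicate 1, far below the 7.97 to 8.16 CPM of the other 3 young WT libraries. In 4 libraries a gap of this size is met by chance in about 1 in 20 groups, and many genes were looked at.

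Of the granule, shared and T cell receptor list genes that were named and searched, 3 moved in opposite directions in old CD11b and LK cells. In each, all MT and WT libraries were apart in both sets, and the difference was not tested. Lamp1, a granule list gene outside that search, did so too (log2 fold change -0.09 in old CD11b and 0.10 in LK cells). Cst7 was lower in all old MT than in all old WT CD11b libraries (log2 fold change -0.39) and higher in all LK MT libraries (0.31). Srgn was lower in old CD11b (-0.11) and higher in LK MT libraries (0.32). Plcg1 was higher in old CD11b (0.59) and lower in LK MT libraries (-0.32). Over all genes tested, all MT lay above all WT libraries for 11.1% in old CD11b and 22.1% in LK cells. All MT lay below all WT for 11.5% and 21.2%. How many genes did so in opposite directions was not counted over all genes, so nothing is read from this number.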

How the results depend on the processing

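In young CD11b cells 0 of the 10 genes were called under each of 15 alternatives. Signs that turned there belonged to small values: Prf1 was at 0.0 with RLE factors, 0.002 with DESeq2, 0.048 with voom, 0.0072 with the length trend removed and 0.0075 without the pair holding Ddx3y, where Cd3e was at 0.036. With 1 library left out Prf1 ran from -0.0658 to 0.1077, Gzma from -0.1129 to 0.1634, Lck from -0.0828 to 0.4924, Il2rb from -0.0146 to 0.2332 and Cd3e from -0.5447 to 0.2005.

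In LK cells the 3 calls became 6 with voom, 0 with the length trend removed, 7 with replicates 2 and 3 alone and 0 with these summed, and ran from 0 to 4 with 1 library left out. Calls over all genes moved as well, as given below. Il2rb turned to 0.061 with voom and 0.10 with replicates 2 and 3 alone, Klrd1 to -0.21 with length removed and -0.087 summed, and Eomes to -0.076 summed. With 1 library left out Klrd1 ran from -0.1037 to 0.2057 and Eomes from -0.0482 to 0.4967. The cause was not tested. Without TMM factors the typical level moved to 0.760 (old MT), 0.483 (old WT) and 2.96 CPM (LK MT, from 2.46).

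Replicate numbers are not stated to pair the samples, and the main fits used no pairing. Deviations of same-numbered MT and WT libraries correlated at -0.252 to 0.446 (young), -0.118 to 0.202 (old) and -0.385 to -0.162 (LK). Differently numbered ones correlated at -0.581 to 0.654, -0.287 to 0.172 and -0.327 to 0.369. With so few libraries per group, these values cannot decide whether the numbers pair samples. With a replicate block 0 of the 10 were called in LK cells, and in young cells Gzma turned to -0.13 and Lck to -0.0065. Over all genes the block left 3 calls in LK cells, 0 in old and 16 in young CD11b cells, beside 4206, 45 and 0. Over all genes counts also moved with DESeq2 (512 in old, 19 in young), voom (4072 in old, 8257 in LK), replicates 2 and 3 alone (5165 in old, 8525 in LK) or summed (1 and 3), the length trend removed (2305 in LK), all 19 libraries in 1 fit (5 in young), the young set without the pair (69) and 1 library left out (0 to 1819 in old, 983 to 5569 in LK, 0 to 1 in young). Counts of 2 to 28 per library limit what old CD11b cells show for Gzmb, Cd3e, Ncr1 and Gzma.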
